A study of Mus musculus with 8 samples.

Results

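The genes described here are Ezh2, Kdm6a and Kdm6b, the ones named in the genotypes of the study, where Kdm6a encodes Utx and Kdm6b encodes Jmjd3. All peaks that overlapped these 3 of 21887 protein-coding genes, or lay within 20 kb of them, were taken from 4 lists of H3K27me3 peaks in mouse chondrocytes of cartilage, grown in culture. That gave 36 of 138214 peaks, namely 12 of 33739 in Ezh2-Cko, 11 of 49405 in Utx-cKO, 7 of 27013 in Jmjd3-Cko and 6 of 28057 in wild type. All 3 genes had a peak in that window in every list, as did 75.8% of protein-coding genes in Ezh2-Cko, 77.9% in Utx-cKO, 74.0% in Jmjd3-Cko and 74.3% in wild type. Each genotype had 1 immunoprecipitated (ChIP) library and 1 input library, so no difference between genotypes has a replicate check and none was tested. The labels give the 3 deletions as conditional, and no Cre driver, deleted exon or animal age was given in the sources used here. The same anti-H3K27me3 antibody is listed for all groups.

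Ezh2 is the catalytic subunit of Polycomb repressive complex 2 (PRC2) and adds methyl groups to lysine 27 of histone H3, a mark linked to gene silencing. Kdm6a and Kdm6b are the demethylases that remove it. Kdm6a lies on the X chromosome and also works within the Mll3/4 complexes, which methylate lysine 4 of histone H3 at enhancers, whereas Kdm6b is known as a gene that cells induce, for example in response to inflammatory signals. In mice, both the methyltransferase and the demethylases have been studied in cartilage for their part in the growth and maturation of chondrocytes.

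The starts of Ezh2 and Kdm6a, as placed by the RefSeq promoters, lay inside a peak in every list, and both promoters are rich in CpG dinucleotides. Their sequences from 250 bases before to 50 after the gene start, taken from RefSeq on GRCm38.p6, are shown 5′ to 3′ because the strongest peak of either locus spans the whole stretch. Capitals mark each CG.
Ezh2 promoter, chr6:47594981-47595280, minus strand: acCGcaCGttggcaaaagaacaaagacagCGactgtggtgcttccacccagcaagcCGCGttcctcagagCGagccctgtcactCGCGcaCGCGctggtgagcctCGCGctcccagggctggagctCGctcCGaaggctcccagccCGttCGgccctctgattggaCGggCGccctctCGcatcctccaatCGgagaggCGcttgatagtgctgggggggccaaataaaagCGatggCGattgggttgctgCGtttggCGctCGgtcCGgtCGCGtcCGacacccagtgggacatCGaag
Kdm6a promoter, chrX:18162325-18162624, plus strand: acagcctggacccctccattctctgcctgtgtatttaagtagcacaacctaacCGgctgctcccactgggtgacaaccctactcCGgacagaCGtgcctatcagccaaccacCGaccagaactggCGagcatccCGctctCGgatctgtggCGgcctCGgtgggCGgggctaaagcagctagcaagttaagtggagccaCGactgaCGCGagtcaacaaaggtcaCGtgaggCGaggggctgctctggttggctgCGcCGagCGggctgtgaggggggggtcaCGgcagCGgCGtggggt
The Ezh2 stretch holds 31 CG and is 64.3% G or C, and the Kdm6a stretch holds 21 CG and is 63.0% G or C. The median over the 14731 protein-coding promoters that RefSeq gives once per gene was 13 CG, and 87.2% of them had fewer than Ezh2 and 67.2% fewer than Kdm6a. The letters CCAAT, searched on both strands as CCAAT and ATTGG, occur 3 times in the Ezh2 stretch and not in that of Kdm6a. Of all these promoters 39.6% hold the motif at least once and 4.25% hold it 3 times or more. Promoters with 15 or more CG had their start under a peak in 93.3% of cases in Ezh2-Cko, 94.8% in Utx-cKO, 93.6% in Jmjd3-Cko and 91.5% in wild type. With fewer than 15 CG the shares were 22.4%, 26.0%, 21.1% and 20.2% in the same order of lists. A peak at the start of Ezh2 or Kdm6a was therefore what most promoters with 15 or more CG showed in these lists, and it is not read as silencing of either gene. These shares describe the deposited lists and are not read as how common the mark is at such promoters. How specific the antibody was could not be tested here. The promoter of Kdm6b is not shown.

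The number of unique ChIP fragments behind each list was 34786292 in Ezh2-Cko, 34359111 in Utx-cKO, 25655346 in Jmjd3-Cko and 29222251 in wild type. The matching inputs held 24041619, 23983492, 16645811 and 16599532 fragments. The authors called peaks in each ChIP library against its own input, and a deeper library can yield more and longer peaks at an equal level of the mark. The titles of the Utx-cKO and Jmjd3-Cko libraries begin with one shared prefix, and those of Ezh2-Cko and of wild type with others. The labels do not explain these prefixes, and with 1 library each a library and its genotype cannot be told apart. Fold enrichment below is the authors' value of a peak over its local input and ranks peaks within their own list. Peaks called this way do not measure the total amount of the mark in a genotype. A longer or stronger peak in a knockout list, Ezh2-Cko included, is therefore not read as more of the mark.

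At Ezh2, a gene of 64997 bp on chromosome 6 from 47530274 to 47595270, each list held a single peak, and it lay over the gene start. This peak ran from 47593221 to 47596017 in Ezh2-Cko (2797 bp), from 47593267 to 47596023 in Utx-cKO (2757 bp), from 47593401 to 47595948 in Jmjd3-Cko (2548 bp) and from 47593600 to 47596011 in wild type (2412 bp). Its fold enrichment was 11.1 in Ezh2-Cko, 13.9 in Utx-cKO, 10.4 in Jmjd3-Cko and 9.02 in wild type. It thus stood above 95.1% of the peaks of the Ezh2-Cko list, 97.4% of the Utx-cKO list, 86.9% of the Jmjd3-Cko list and 91.9% of the wild-type list. Deletion of Ezh2, as labelled, did not go with the absence of a peak at its own locus. The rest of the gene body carried no peak in any list. Exons were not told apart here, and these peaks do not show whether part of the gene was deleted.

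The outer edge of the Ezh2 peak, upstream of the gene start at 47595030, was nearly the same in the 4 lists. It lay 987 bp upstream in Ezh2-Cko, 993 bp in Utx-cKO, 918 bp in Jmjd3-Cko and 981 bp in wild type. On the side of the gene body the peak reached 1809 bp in Ezh2-Cko, 1763 bp in Utx-cKO, 1629 bp in Jmjd3-Cko and 1430 bp in wild type. All of the difference in length beyond 12 bp was thus on the gene-body side in each knockout, and in Jmjd3-Cko the upstream edge was 63 bp nearer to the start. The gene-body edge lay 379 bp farther in than in wild type in Ezh2-Cko, where the median shift over 7688 genes with a start peak in both lists was 29 bp and 83.9% of genes shifted less. The shift in Utx-cKO was 333 bp against a median of 164 bp (64.7% shifted less), while Jmjd3-Cko had 199 bp against 14 bp (78.0%). The peak also covers part of F830010H11Rik, a long noncoding RNA gene at 47595209 to 47597538, so its upstream part cannot be assigned to Ezh2 alone. Cul1, a ubiquitin ligase scaffold gene 4130 bp from the other end of Ezh2, had no peak within the window, its own peaks lying farther away.

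**Figure D1:**
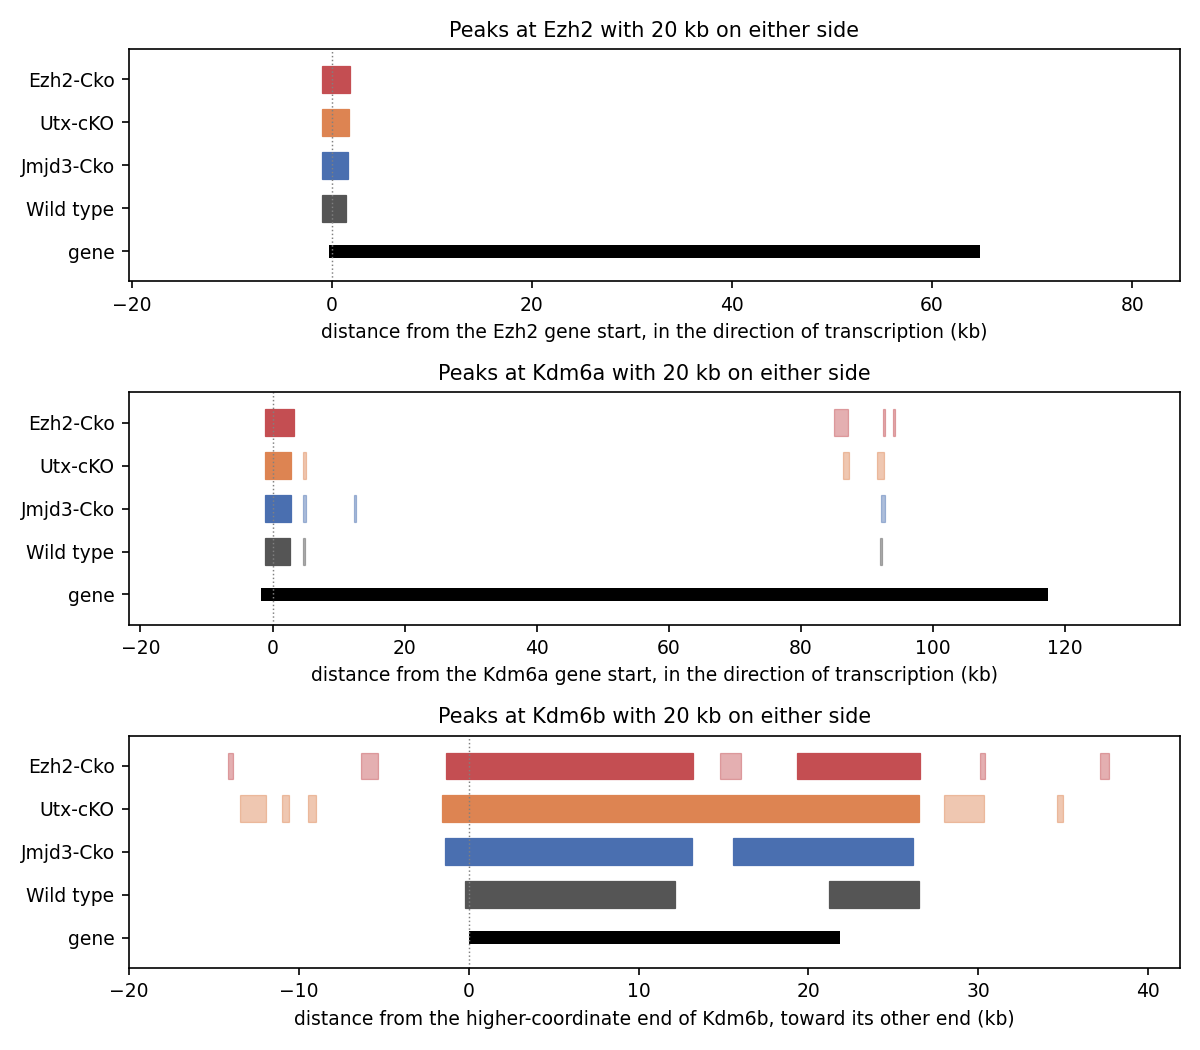
Peaks of the 4 lists at Ezh2, Kdm6a and Kdm6b, drawn to scale by distance in kb from the gene start (Ezh2, Kdm6a) or from the higher-coordinate end of the gene (Kdm6b), with the gene as a black bar, full colour for fold enrichment of 4 or more and pale colour below it. Ezh2 shows 1 peak in each list, Kdm6a a start peak with weak pieces far inside the gene, and Kdm6b a domain that is 1 peak in Utx-cKO, 2 in Jmjd3-Cko, 3 in Ezh2-Cko and 2 in wild type.

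At Kdm6a, a gene of 119075 bp on chromosome X from 18160862 to 18279936, a strong peak at the gene start was joined by short, weak pieces inside the gene. The start peak ran from 18161376 to 18165814 in Ezh2-Cko (4439 bp), from 18161370 to 18165337 in Utx-cKO (3968 bp), from 18161378 to 18165296 in Jmjd3-Cko (3919 bp) and from 18161480 to 18165206 in wild type (3727 bp). Fold enrichment was 14.0 in Ezh2-Cko, 17.4 in Utx-cKO, 15.3 in Jmjd3-Cko and 12.6 in wild type. Among the 3 genes Kdm6a had the highest-ranked peak in every list, at place 454 in Ezh2-Cko, 277 in Utx-cKO, 886 in Jmjd3-Cko and 474 in wild type, above 96.7% or more of each list. The start peak of Kdm6a was likewise called in the list of its own knockout, Utx-cKO.

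The gene start used for Kdm6a, 18162575, is that of the promoter shown and lies inside the gene limits given above. No list had a peak over the limit at 18160862, and the whole start peak lay within the gene limits. Upstream below thus means before the promoter's gene start. The upstream edge of the Kdm6a start peak lay 1199 bp from that start in Ezh2-Cko, 1205 bp in Utx-cKO, 1197 bp in Jmjd3-Cko and 1095 bp in wild type. The 3 knockouts thus placed that edge within 8 bp of one another, beyond that of wild type by 104 bp in Ezh2-Cko, 110 bp in Utx-cKO and 102 bp in Jmjd3-Cko. These upstream shifts exceeded those of 71.5%, 53.7% and 75.8% of genes, whose medians were 24, 92 and 10.5 bp. On the gene-body side the peak reached 3239 bp in Ezh2-Cko, 2762 bp in Utx-cKO, 2721 bp in Jmjd3-Cko and 2631 bp in wild type. The gene-body shift of 608 bp in Ezh2-Cko exceeded that of 89.8% of genes, whereas those of 131 bp in Utx-cKO and 90 bp in Jmjd3-Cko exceeded 45.5% and 64.7%. The start peak of Kdm6a was thus longest, and its gene-body edge farthest from that of wild type, in Ezh2-Cko and not in Utx-cKO.

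The weak pieces inside Kdm6a fell into 5 places, of which 1 held a piece in all 4 lists. That place, about 92 kb into the gene, held a peak of 252 bp in Ezh2-Cko, 1128 bp in Utx-cKO, 587 bp in Jmjd3-Cko and 274 bp in wild type, with fold enrichment of 2.77, 2.34, 3.16 and 3.28. In Utx-cKO this piece was almost the weakest of the list, above 0.265% of its peaks. No base of that place was under a peak in all 4 lists. The Ezh2-Cko piece, 92439 to 92690 bp inside, and the wild-type piece, 91994 to 92267 bp inside, did not overlap. They count as 1 place through the longer pieces of Utx-cKO and Jmjd3-Cko. The other weak places changed between lists. A piece from 4549 to 5132 bp inside the gene was called in Utx-cKO (418 bp), Jmjd3-Cko (486 bp) and wild type (393 bp) but not in Ezh2-Cko, and one from 85048 to 87256 bp inside was called in Ezh2-Cko (2036 bp, fold enrichment 3.19) and Utx-cKO (835 bp, 2.68) but not in Jmjd3-Cko or wild type. A piece of 276 bp in Jmjd3-Cko and one of 383 bp in Ezh2-Cko were each in that list alone. All of these pieces had a fold enrichment of 3.50 or less. Of the 1106 genes between 0.8 and 1.25 times as long as Kdm6a, the median number of peaks with the same flanks was 3 in Ezh2-Cko, 4 in Utx-cKO, 2 in Jmjd3-Cko and 2 in wild type, where Kdm6a had 4, 4, 4 and 3. The neighbours Dusp21, a phosphatase gene, Gm41891 and the pseudogene Gm4730 carried no peak in any list.

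**Figure D2:**
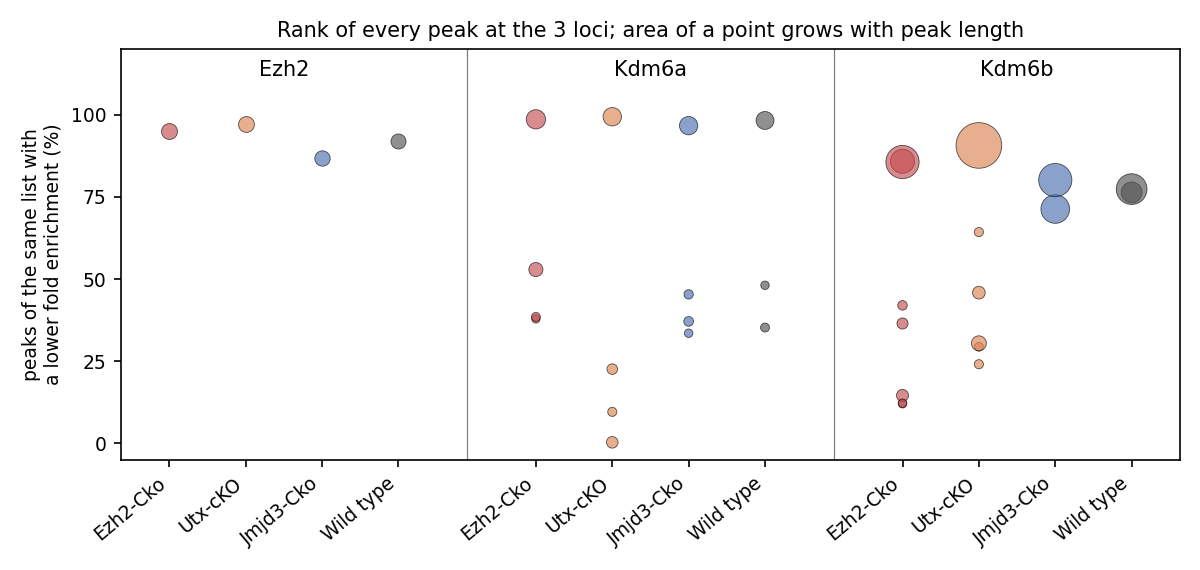
Share of peaks of the same list with a lower fold enrichment (%, vertical axis) for each of the 36 peaks, grouped by gene and list, with the area of a point growing with peak length. The strongest peak at Kdm6a stands above 96.7% or more of each list, its pieces inside the gene lie at 52.9% or lower, and the long Kdm6b peaks lie between 71.3% and 90.7%.

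Kdm6b, a gene of 21860 bp on chromosome 11 from 69398508 to 69420367, differed from the others in that most of its body lay under peaks that were long and of middling strength. Peaks covered 77.9% of the gene in Ezh2-Cko, 100% in Utx-cKO, 88.9% in Jmjd3-Cko and 58.6% in wild type. For comparison, peaks covered 3.15%, 3.08%, 2.88% and 2.57% of Ezh2, and 5.97%, 5.33%, 4.42% and 3.69% of Kdm6a, in the same order of lists. The length under peaks at Kdm6b, flanks included, was 25188 bp in Ezh2-Cko, 33226 bp in Utx-cKO, 25168 bp in Jmjd3-Cko and 17629 bp in wild type. In each list 99.1% or more of the 21887 genes had less. This summed length, which counts every peak in the window, was thus near the top of all genes in all 4 genotypes, wild type included.

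The Kdm6b domain was 1 unbroken peak in Utx-cKO, from 69393859 to 69421973. Its 28115 bp made it the 8th longest peak of that list. In Jmjd3-Cko, the knockout of the gene itself, the domain was made of peaks from 69394191 to 69404813 (10623 bp) and from 69407247 to 69421791 (14545 bp, place 15 by length). In Ezh2-Cko it was made of peaks from 69393783 to 69401070 (7288 bp), from 69404327 to 69405603 (1277 bp) and from 69407184 to 69421739 (14556 bp, place 20). In wild type it was made of peaks from 69393890 to 69399168 (5279 bp) and from 69408220 to 69420569 (12350 bp, place 22). The wild-type pieces are 9051 bp apart, whereas the gap between the long pieces was 2433 bp in Jmjd3-Cko, and in Ezh2-Cko gaps of 3256 bp and 1580 bp flanked the short middle piece. Each knockout list therefore covers part of the middle of Kdm6b that has no wild-type peak, and Utx-cKO covers all of it.

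Bridging was also counted over wild-type gaps of about this width, whatever the length of the peaks beside them. Of 1163 pairs of neighbouring wild-type peaks 8 to 10 kb apart, a range chosen after the Kdm6b gap was seen, a single Utx-cKO peak bridged 2 (0.172%), one at Kdm6b and one of 14370 bp at Sema3f, a semaphorin gene. Ezh2-Cko bridged 0 of 1163 (0%), and Jmjd3-Cko likewise 0 of 1163 (0%). The count includes Kdm6b, from which the range was set, so it describes the lists and is no check of the bridging there. The bridging at Kdm6b is carried by 1 peak with fold enrichment 10.2. Equally long lists and a fold enrichment of 4 or more keep that same peak and are no separate check either.

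The outer limits of the domain differed on one side. At the end toward Cyb5d1 it reached 26584 bp from the higher-coordinate end of Kdm6b in Ezh2-Cko, 26508 bp in Utx-cKO, 26176 bp in Jmjd3-Cko and 26477 bp in wild type, so that the lists differed by 408 bp at most. At the other end it extended past the gene by 1372 bp in Ezh2-Cko, 1606 bp in Utx-cKO, 1424 bp in Jmjd3-Cko and 202 bp in wild type. That extension carried the peak over the end of Dnah2, an axonemal dynein gene 440 bp away, in the 3 knockouts and not in wild type. At the locus 4532 bp were under peaks in all 3 knockouts and not in wild type, and 0 bp in wild type alone. At Ezh2 these lengths were 199 bp and 0 bp, and at Kdm6a 410 bp and 98 bp. The same lengths were not computed for all genes, so they are not read as particular to these loci. Over all genes the median ratio of covered length to wild type was 1.14 for Ezh2-Cko, 1.60 for Utx-cKO and 1.02 for Jmjd3-Cko.

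The domain is shared with other genes. Naa38, a subunit of an N-terminal acetyltransferase, and Tmem88, a membrane protein gene 274 bp from Kdm6b, lay wholly under peaks in every list. Cyb5d1 had 1945 bp of its 4798 bp covered in Ezh2-Cko, 3340 bp in Utx-cKO, 1537 bp in Jmjd3-Cko and 1838 bp in wild type. The noncoding RNA gene Gm51903, which overlaps Kdm6b, was covered over all 5291 bp in each knockout and over 5057 bp in wild type. Peaks of the domain can therefore not be assigned to Kdm6b alone.

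By strength, read as fold enrichment, Kdm6b was the lowest of the 3 genes in each list and near the middle of all genes. Each peak has a single value whatever its length, so the local strength within the long Kdm6b peaks is not shown. The highest fold enrichment in the Kdm6b domain was 8.26 in Ezh2-Cko, 10.2 in Utx-cKO, 8.70 in Jmjd3-Cko and 6.39 in wild type, above 85.9%, 90.7%, 80.1% and 77.4% of the peaks of each list. Read against the strongest peak of each gene with a peak in its window, this was above 53.1%, 56.2%, 48.0% and 40.7% of genes. The same shares were 83.6%, 87.2%, 64.4% and 76.8% for Ezh2 and 95.7%, 97.6%, 91.6% and 95.8% for Kdm6a. In each list the order by strength was thus Kdm6a, Ezh2, Kdm6b, and the order by covered length Kdm6b, Kdm6a, Ezh2. With a window of 50 kb, which takes in the strong peak beyond Kdm6b, the order by strength turned: Kdm6b then stood above 89.3% of the Jmjd3-Cko list, past Ezh2, and above 98.4% of the wild-type list, past both. Pieces beyond the domain, with fold enrichment of 3.45 or less, were called only in Ezh2-Cko (4 pieces) and Utx-cKO (5 pieces), the lists of the 2 deepest ChIP libraries. The part of depth in these pieces was not tested.

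**Figure D3:**
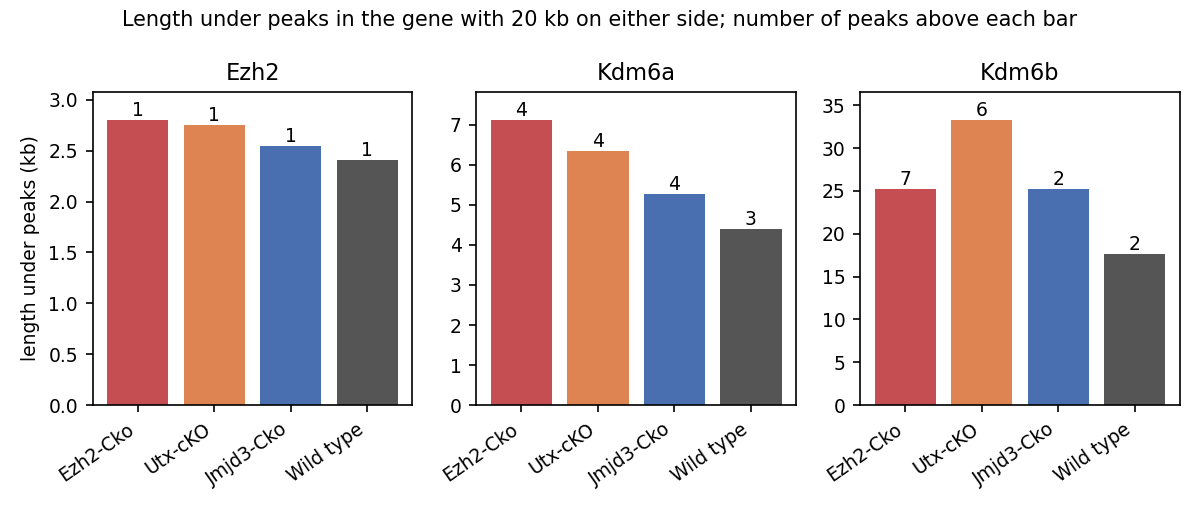
Length under peaks (kb, bars from 0) in each gene with 20 kb on either side, for the 4 lists, with the number of peaks above each bar and separate vertical scales. The bars of every knockout stand above wild type at each gene, from 2.55 to 2.80 kb against 2.41 kb at Ezh2, from 5.27 to 7.11 kb against 4.39 kb at Kdm6a and from 25.2 to 33.2 kb against 17.6 kb at Kdm6b.

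Set beside all genes, the covered length of the targeted genes in their own knockouts was, with the lists as deposited, longer than in wild type but below the limit of 1.5 times used here to call a difference. Ezh2 had 2797 bp in Ezh2-Cko against 2412 bp in wild type, 1.16 times. Kdm6a had 6349 bp in Utx-cKO against 4394 bp in wild type, 1.44 times. This direction turned to 0.903 times with equally long lists, and to 0.992 times among peaks of q of 0.001 or less, where its weak pieces are missing from the Utx-cKO list. Kdm6b had 25168 bp in Jmjd3-Cko against 17629 bp in wild type, 1.43 times. The median over genes with a peak in both lists was 1.14 times for Ezh2-Cko, 1.60 times for Utx-cKO and 1.02 times for Jmjd3-Cko, and the 3 ratios exceeded those of 52.4%, 42.2% and 89.6% of genes. Ezh2 in Ezh2-Cko was therefore close to the middle of all genes, and Kdm6b in Jmjd3-Cko lay in the upper part. Kdm6a in Utx-cKO lay near the middle with the lists as deposited and above 12.7% of genes with equally long lists. The Jmjd3-Cko ChIP library held fewer fragments than that of wild type, and its input held 46279 fragments more than that of wild type. The part of depth in these ratios was not tested.

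Of the 9 ratios, 2 reached 1.5 times, neither of them in the gene's own knockout. Kdm6a was at 1.62 times in Ezh2-Cko (7110 bp against 4394 bp in wild type), where 20.3% of 16011 genes reached 1.5 times, and this call ended at fold enrichment of 4 or more, with 1.19 times. Kdm6b was at 1.88 times in Utx-cKO (33226 bp against 17629 bp in wild type), where 54.8% of 16130 genes did, so that this call is what a typical gene showed in that list. No targeted gene reached 1.5 times in Jmjd3-Cko, where 8.34% of 15858 genes did, but Kdm6b passed it there with windows of 0 kb (1.52) and 50 kb (1.502). In the other direction no member was called in any knockout, against 3.03% of genes for Ezh2-Cko, 1.15% for Utx-cKO and 6.10% for Jmjd3-Cko. The remaining ratios were 1.43 for Kdm6b in Ezh2-Cko, 1.14 for Ezh2 in Utx-cKO, and 1.06 for Ezh2 and 1.20 for Kdm6a in Jmjd3-Cko. The ratio of Ezh2 in Utx-cKO exceeded that of 23.6% of genes, so its start peak lengthened less than the covered length of most genes in that list.

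**Figure D4:**
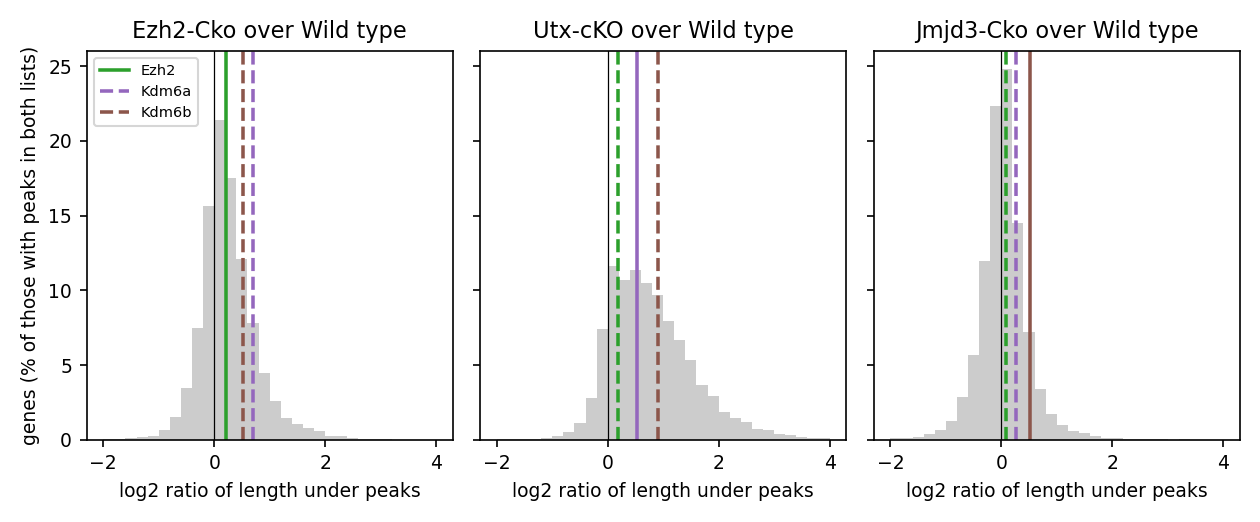
Distribution over genes with peaks in both lists of the log2 ratio of length under peaks, knockout over wild type, for the 3 knockouts (vertical axis, % of genes per bin), with vertical lines for Ezh2, Kdm6a and Kdm6b, solid in the gene's own knockout and dashed otherwise, ratios outside -2 to 4 not being drawn. All 9 lines lie right of 0, Ezh2 near the middle in Ezh2-Cko, and Kdm6b in Jmjd3-Cko above 89.6% of genes.

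Because Kdm6a is X-linked, its ratio was also read against the X chromosome. In Utx-cKO the median ratio was 1.14 over 492 genes on X and 1.62 over 15638 autosomal genes, and Kdm6a at 1.44 exceeded 80.9% of the X-linked genes. In Ezh2-Cko it exceeded 92.6% of 488 and in Jmjd3-Cko 81.8% of 479. These shares hold for the lists as deposited. With equally long lists the ratio of Kdm6a in Utx-cKO was 0.903, and it was not read against X there. Peaks on X made up 1.79% of the Ezh2-Cko list, 1.34% of the Utx-cKO list, 2.08% of the Jmjd3-Cko list and 2.01% of the wild-type list. Chromosome Y held 0 peaks in Ezh2-Cko, 4 in Utx-cKO, 2 in Jmjd3-Cko and 6 in wild type. Uty, the Y-linked relative of Utx with little demethylase activity, had a peak of 543 bp with fold enrichment 3.30 in wild type and none within 20 kb in a knockout. The sex of the animals was not given in the sources used here, and its part in the Kdm6a values was not tested.

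In base pairs, 84.8% or more of the wild-type length at each of the 3 loci lay under the peaks of each knockout. Ezh2-Cko covered all of the wild-type length at Ezh2 and Kdm6b (100%) and 84.8% of it at Kdm6a, against a median of 90.4% over genes. Utx-cKO covered 100% at Ezh2 and Kdm6b and 97.4% at Kdm6a, against a median of 97.4%. Jmjd3-Cko covered 97.4% at Ezh2, 95.4% at Kdm6a and 98.3% at Kdm6b, against a median of 87.6%. Bases under a peak in all 4 lists made up 83.8% of those under a peak in any list at Ezh2, 41.1% at Kdm6a and 49.4% at Kdm6b. Ezh2, with a single peak per list, was thus the locus with the most uniform cover. At Kdm6a the bases under a peak in all 4 lists were the 3727 bp of the wild-type start peak. They lay within 4445 bp under a start peak in any list, beside 2349 of 2803 bp at Ezh2. The lower share at Kdm6a thus came mostly from weak pieces outside the start peak. Kdm6b varied through the middle and one end of its domain and through weak pieces beyond it.

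The partners of these enzymes give the same readout for the wider pathway. All 11 other PRC2 genes examined had a peak within 20 kb in all 4 lists, a share to be read against the 74.0 to 77.9% of all genes given at the outset. Of these 11, 3 reached 1.5 times the wild-type length in Ezh2-Cko, namely Ezh1 (1.51), the paralogue of Ezh2, Aebp2 (1.69), a DNA-binding accessory subunit, and Epop (1.86), another accessory subunit. In Utx-cKO 5 did, namely Ezh1, Rbbp4, Aebp2, Phf19 and Epop, and in Jmjd3-Cko 1 did, Aebp2 (1.86). Over all genes the shares were 20.3%, 54.8% and 8.34% in the same order. None of the 11 was 1.5 times below wild type in a knockout, and their median ratio was 1.28 for Ezh2-Cko, 1.29 for Utx-cKO and 1.14 for Jmjd3-Cko, beside 1.14, 1.60 and 1.02 over all genes. Eed and Suz12, which form the core of PRC2 with Ezh2, had 1.04 and 1.12 times the wild-type length in Ezh2-Cko, 1.13 and 1.15 times that length in Utx-cKO, and 1.01 and 1.25 times that length in Jmjd3-Cko.

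The 9 genes of the Mll3/4 complexes, in which Utx resides, also had a peak in every list. None reached 1.5 times wild type in Ezh2-Cko or Jmjd3-Cko, where 20.3% and 8.34% of all genes did, and 4 did in Utx-cKO, namely Kmt2d (1.63), a catalytic subunit, Ncoa6 (2.41), Pagr1a (1.58) and Wdr5 (1.87), where 54.8% of all genes did. Their median ratio was 1.20 for Ezh2-Cko, 1.44 for Utx-cKO and 1.03 for Jmjd3-Cko, beside 1.14, 1.60 and 1.02 over all genes, and none was 1.5 times below wild type.

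Genes most like the members by covered length over the 4 lists, among 15760 genes with a peak in each, were Cdkl4, Gatad1 and Gpc4 for Ezh2, with mean absolute differences of 0.02, 0.03 and 0.04 on the log2 scale. For Kdm6a they were Asrgl1, Rhpn2 and Nufip1, each at 0.05. For Kdm6b they were Lyl1 at 0.06 and Thada and Ehbp1l1 at 0.12. Gatad1, which codes for a zinc finger protein, and Gpc4, which codes for a glypican, had 1 peak in each list as Ezh2 did. Cdkl4, the closest to Ezh2 by covered length, had 4 peaks in each knockout list and 3 in wild type. Lyl1, a basic helix-loop-helix factor gene, had 26574 bp in Ezh2-Cko, 34549 bp in Utx-cKO, 25550 bp in Jmjd3-Cko and 18671 bp in wild type, in 6, 2, 7 and 7 peaks. The likeness rests on 4 libraries and on length alone.

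Peaks outside a gene but within the limit of 20 kb were found at Kdm6b alone. The farthest of them lay 15299 bp from Kdm6b in Ezh2-Cko (fold enrichment 2.85) and 12793 bp away in Utx-cKO (2.74). The nearest peak outside it lay 28363 bp away in Ezh2-Cko (fold enrichment 9.53), 26840 bp in Utx-cKO (8.99), 27278 bp in Jmjd3-Cko (11.2) and 28641 bp in wild type (12.7). At Ezh2 the nearest outside peak was 55609 bp away in Ezh2-Cko, 55312 bp in Utx-cKO, 55664 bp in Jmjd3-Cko and 48047 bp in wild type, and at Kdm6a it was 588581 bp or more away in each list.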

How the data were processed

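The 4 deposited peak lists of H3K27me3 were analysed, each from 1 ChIP and 1 input library, 8 libraries in all. Per the file headers, MACS 2.1.2 was run in paired-end and broad mode on each ChIP library with its own input, unpooled, with both q limits at 0.05, 1 duplicate fragment kept per position and the larger library scaled down. Per the submitters' processing notes the tools were Bowtie2, MACS2, ChIPseeker, FastQC 0.11.5, deepTools 2.4.1 and HOMER 4.10. The genome build was not given in the sources used here. The coordinates were read as GRCm38, and the peaks over gene starts of that build are the only check made here. The columns deposited by the authors are length, pileup (a coverage signal), fold enrichment (a ratio to local input), −log10 q and −log10 p. Only length and fold enrichment were used in results.

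From these, peaks overlapping a gene with 20 kb on either side by at least 1 bp were counted, and the length under them was summed within that window, for 21887 protein-coding genes of the RefSeq table of GRCm38.p6. This table gives neither strand nor exons, and strand and gene start came from the RefSeq promoter table, which matched 2 of the 3 members. A ratio to wild type needs a peak in both lists and was called from 1.5 times in either direction. Ranks count peaks of the same list with a lower fold enrichment. No test was made, since each genotype has 1 library. The window functions were tested on simulated peaks and gave the exact length and number at 200 of 200 genes.

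The members and lists were chosen with earlier results of these data known. Named genes are the members, every gene in their windows, 11 PRC2 genes, 9 Mll3/4 genes, Uty and per member the 3 genes most like it by covered length. Other named genes were chosen after their values were seen. Alternatives were q of 0.001 or less, fold enrichment of 4 or more, equally long lists, windows of 0, 5 and 50 kb, 50% of a peak in the window, and merging within 3 kb. Software was matplotlib 3.10.9, numpy 2.4.6, scipy 1.17.1 and pandas 2.3.3 under Python 3.11.15.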

Additional observations from a re-analysis of the deposited data

How the results depend on the processing

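Of the 63 ratios of covered length to wild type under the alternatives, 58 were above 1 and 5 below. Those below were Ezh2 with a window of 50 kb, where 1 weak wild-type peak of 427 bp enters and none in a knockout, at 0.985 for Ezh2-Cko, 0.971 for Utx-cKO and 0.897 for Jmjd3-Cko, and Kdm6a in Utx-cKO at 0.992 with q of 0.001 or less and 0.903 with equally long lists, where its weak pieces leave the Utx-cKO list. The last was the only one of the 63 to move by 1.5 times or more. The call of Kdm6a in Ezh2-Cko ended at fold enrichment of 4 or more, at 1.19 times. Kdm6b in Jmjd3-Cko passed the limit with windows of 0 kb (1.52) and 50 kb (1.502). Kdm6b in Utx-cKO stayed between 1.59 and 2.001 and was called under the 7 alternatives run for covered length, which was not recomputed with merged peaks.

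Peaks at the 3 loci together numbered 12 for Ezh2-Cko, 11 for Utx-cKO and 7 for Jmjd3-Cko. Fold enrichment of 4 or more left 4, 3 and 4 of them, and q of 0.001 or less left 6 in Ezh2-Cko and 4 in Utx-cKO. In Utx-cKO there were also 5 with equally long lists, 7 after merging and 6 with windows of 0 kb and of 5 kb. With a window of 50 kb the order of the 3 genes by rank turned in Jmjd3-Cko and wild type, through a strong peak beyond Kdm6b. The lowest rank among the 3 loci, reported as 85.9% in Ezh2-Cko, 90.7% in Utx-cKO, 80.1% in Jmjd3-Cko and 77.4% in wild type, was 61.8%, 68.2%, 58.8% and 45.9% among peaks of fold enrichment of 4 or more and 76.1%, 82.1%, 72.0% and 65.2% among those of q of 0.001 or less. With equally long lists it was 82.3% for Ezh2-Cko, 83.0% for Utx-cKO and 76.5% for wild type. These fell because weak peaks were left out. With a window of 50 kb it was 90.8% in Ezh2-Cko, 86.9% in Jmjd3-Cko and 91.9% in wild type. No paired analysis was possible because each genotype has 1 ChIP library. The absence of a weak piece from a list does not show that the mark is absent there. Its relation to depth was not tested.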

Other observations

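With the 27013 strongest peaks of each list, the median ratio of covered length to wild type over genes was 1.08 for Ezh2-Cko, 1.32 for Utx-cKO and 1.03 for Jmjd3-Cko. Kdm6b in Utx-cKO was then at 1.71 times (30065 bp against 17629 bp in wild type), above 71.8% of 15873 genes, and Kdm6b in Jmjd3-Cko at 1.43 times, above 88.5% of 15807. Kdm6a in Utx-cKO, reduced there to its start peak of 3968 bp against 4394 bp in wild type, exceeded 12.7% of genes. Kdm6a in Ezh2-Cko stayed at 1.62 times and exceeded 89.1% of 15865 genes.

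Dnah2, which runs 128302 bp away from Kdm6b, had 8 peaks over its body in Ezh2-Cko, 13 in Utx-cKO, 2 in Jmjd3-Cko and 2 in wild type, with 5992, 10539, 1997 and 1621 bp covered. Gm32483, a noncoding RNA gene on the other side, had 1687 bp covered in Ezh2-Cko, 3018 bp in Utx-cKO, 2241 bp in Jmjd3-Cko and 878 bp in wild type.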
